A study of Mus musculus with 9 samples.

Results

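The control tumours of a study of the glutamate decarboxylase gene Gad1 are described here, 3 of the 9 RNA-seq libraries in the series, chosen by their titles as NTC replicates 1 to 3. Every one grew from MC38, a mouse colon adenocarcinoma cell line, under the skin of C57BL/6 mice and was taken on day 20. Before injection the cells had been infected with a lentivirus that carries a non-targeting control shRNA and selected with puromycin, so the controls share the vector, the selection and the C57BL/6 host with the 2 knockdown groups, which are not compared here. The labels name no mouse per tumour, and give neither age nor sex of the mice. Any spread between the 3 libraries is therefore a spread between samples that may be partly technical.

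The RNA of a subcutaneous tumour is a mixture from cancer cells and from vessels, fibroblasts, blood and immune cells of the host. Cancer cells of epithelial origin are recognised by keratins and by the adhesion proteins E-cadherin and Epcam, and cells of the colon by the Cdx transcription factors and brush border proteins. In many colon cancers the Wnt pathway is permanently active, which keeps beta-catenin in the nucleus and switches on genes that feed back on the pathway. Interferons, which are released by activated lymphocytes and by infected or stressed cells, switch on guanylate-binding proteins, chemokines and the machinery that loads peptides onto MHC molecules.

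Total RNA had been sequenced to 18373748, 20263143 and 21071801 reads assigned to genes in replicates 1, 2 and 3, and values per gene are given in that order throughout, as reads divided by 1 factor per library (normalized reads). These values are not divided by gene length, so levels of different genes are compared only after division by the length of the longest annotated transcript (normalized reads per kb). Of 17134 listed genes, 13647 had a mean of at least 20 normalized reads, the minimum used for counts below, and 12502 of these were annotated as protein coding. A mean above 10000 was reached by 220 genes, a mean of 1000 to 10000 by 5006 and a mean of 100 to 1000 by 5730. The most abundant 1129, 1182 and 1219 genes held 50% of the reads of the respective libraries. Ribosomal protein genes took 9.24%, 9.02% and 8.74% of reads, mitochondrially encoded genes 0.931%, 0.491% and 0.699%, and haemoglobin genes 0.284%, 0.0306% and 0.0165%. The haemoglobin and mitochondrial shares were both highest in replicate 1. Gad1 itself, which makes GABA from glutamate, had 281, 265 and 326 normalized reads, a mean of 291 ± 31.8 (SD, n = 3).

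Translation, protein folding and glycolysis supplied many of the highest genes. Cytosolic ribosomal protein genes made up 61 of the 100 genes with the highest level per kb. With those and mitochondrial genes set aside, Eef1a1, which delivers amino-acyl tRNA to the ribosome, was the highest protein-coding gene at 147831 ± 23619 normalized reads per kb (SD, n = 3). Its normalized reads were 303769, 272011 and 219849, so it was lowest in replicate 3. Next came the chaperone gene Hsp90ab1 at 45731 ± 1662 per kb and Igfbp2, which encodes a secreted protein that binds insulin-like growth factors, at 37081 ± 3999 per kb. Igfbp2 also stood among the 10 genes with the most reads once ribosomal protein and mitochondrial genes were set aside, at 51599, 51364 and 42432 normalized reads. The glycolytic enzyme genes Gapdh, Eno1, Pkm, Ldha, Aldoa and Tpi1 were in the same 25, with Gapdh at 30978 ± 2785 and Tpi1 at 15770.3 ± 838 normalized reads per kb. Other members were Ptma, Eef2, Tpt1, S100a6, Actb, Mif, Eef1g, Eif5a, Npm1, Cox4i1, Actg1, Fau, Hspa8 and Atp5b. Fau encodes a ribosomal protein fused to a ubiquitin-like one, but was neither set aside nor counted among the 61. The beta globin gene Hbb-bs entered the 25 through replicate 1, with 56266, 6075 and 3199.6 normalized reads per kb.

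The last of the 25 was Sox2, a transcription factor of embryonic stem cells and foregut and neural progenitors. Sox2 had 30317, 28321 and 28255 normalized reads and 14081 ± 569.8 per kb (SD, n = 3), rank 84 of all genes with a length. The libraries differed little in it, with a coefficient of variation of 4.05%. Sox2 lies inside the long non-coding gene Sox2ot, which had 1320.3, 1602 and 1536 normalized reads, and as no source used here gives the strand setting of the counting, reads of the overlap cannot be assigned with certainty.

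Epithelial markers were abundant in every control tumour. Of 15 epithelial genes, 14 had a mean of at least 20, and the exception was Ovol1. Cdh1, which encodes E-cadherin, had 12611, 13926 and 13779 normalized reads, and Epcam 10895, 10023 and 8732. Per kb these were 3033 ± 163 and 4845 ± 533 (SD, n = 3), against a median of 186 normalized reads per kb over genes with a mean of at least 20. The keratin genes Krt8 and Krt18, which form the filaments of simple epithelia, read 7589.7, 5741 and 4608 and 3069.9, 2155 and 1460.5 normalized reads. Both keratins were highest in replicate 1 and lowest in replicate 3, as was Krt19 at 2318, 1897 and 1246. Cldn7 and Cldn4, tight junction components, had 2368, 2647 and 2394 and 2293, 2384 and 1955 normalized reads, and Esrp1, a splicing factor of epithelial cells, 4460.1, 4527 and 4415.

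Markers of colon identity were lower than these, although the labels give a colon adenocarcinoma. Of 23 genes of intestinal epithelium, 14 were listed in the files and 8 had a mean of at least 20. Cdx2, the transcription factor that specifies intestine, had 549.8, 309 and 245 normalized reads, highest in replicate 1, and 163 ± 71.1 per kb, under the median of 186. Cdx1, its close relative, had 95.8, 17.1 and 30.7, and the brush border gene Vil1 96.9, 172 and 181. Gpa33, a surface antigen of colon epithelium, was the highest of the list at 724, 1308 and 999.9 normalized reads and 402 ± 116 per kb. Cdh17, an intestinal cadherin, was at or near the floor of 3 reads per library, at 4.51, 5.02 and 0.960 normalized reads. Krt20 had 48.4, 17.1 and 19.2, the goblet cell mucin gene Muc2 10.1, 3.01 and 15.4, and Lgals4 15.8, 9.03 and 5.76. Olfm4, Tff3, Fabp1, Slc26a3, Car1, Guca2a, Hnf4a, Atoh1 and Phgr1 were not listed in the files. Genes not listed, here and below, have no value in any library, so they cannot be called low or absent. The summed level of the listed members was 1897, 2254 and 1871 normalized reads, against 56968, 54426 and 48738 for the epithelial genes.

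Genes that respond to Wnt signalling stood among the highest transcripts of the tumours. Axin2, a scaffold of the complex that destroys beta-catenin and itself a target of the pathway, had 19339.8, 17892 and 19451 normalized reads and 4435 ± 204 per kb (SD, n = 3), rank 216. Nkd1, another inhibitor induced by the pathway, had 19808, 15760.4 and 17236 and 4313 ± 502 per kb, rank 224. Notum, a secreted enzyme that inactivates Wnt ligands, had 10024, 7464 and 6776 and 3656 ± 774 per kb, rank 271. All 3 exceeded the per kb level of Cdh1 in the mean. Rnf43 and Znrf3, ubiquitin ligases that remove Wnt receptors, had 3296, 3371 and 3480.4 and 2449, 2098 and 2548 normalized reads, and the transcription factor genes Tcf7 and Lef1 had 4162, 3790.3 and 4003 and 670.3, 515 and 699.5. Ctnnb1, which encodes beta-catenin, had 28601, 27470.5 and 24324 and a level of 7397 ± 612 per kb.

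Intestinal stem cell targets of the same pathway were low beside these feedback genes. Lgr5, a receptor of crypt stem cells, had 183, 143 and 162 normalized reads and 33.9 ± 4.17 per kb (SD, n = 3). Ascl2, a factor of the same cells, had 6.80 ± 2.81 per kb, and Sox9, a progenitor factor, 37.0 ± 8.77 per kb. Myc had 391, 472 and 422, and its relatives Mycn and Mycl had 1924, 951 and 756 and 1757, 1466 and 1246. Mycn was highest in replicate 1. Wnt ligand genes varied widely, with Wnt5b the highest of 12 listed per kb at 439 ± 29.7 and 971, 1039.9 and 1112 normalized reads, and 7 of the 12 had a mean of at least 20. Of 27 listed Wnt pathway members 25 had a mean of at least 20, and none of these was 2-fold above or below both other libraries in any of the 3 tumours, and their summed level was 103845, 96447 and 95907.

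Transcription factors and ligands of the early embryo, limb and foregut were expressed beside Sox2. Pitx1, a homeobox factor of the hindlimb and pituitary, had 20845, 19633 and 19632 normalized reads and 8175 ± 286 per kb (SD, n = 3), rank 118. Fgf8, a growth factor of the limb bud and primitive streak, had 10712, 4959.7 and 4766 normalized reads and 5833 ± 2893 per kb. Fgf8 was 2.16-fold (95% interval 2.09 to 2.24) higher in replicate 1 than in replicate 2 and 2.25-fold (95% interval 2.17 to 2.33) higher than in replicate 3, where the exact binomial intervals cover counting error only. Fgf3 followed the same order at 1552, 693 and 567. Of the 12 listed Fgf ligand genes, 6 had a mean of at least 20 and the other 6 were below it.

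T-box genes were led by Tbx2 at 9967, 6788 and 5822 normalized reads and Tbx4, a hindlimb factor, at 3305, 2841 and 2719. Brachyury, the mesoderm factor encoded by T, had 243, 289 and 555 and was highest in replicate 3. Hox genes were broadly expressed, 27 of 31 listed with a mean of at least 20, with Hoxb6 and Hoxa10 the highest per kb at 1748 ± 415 and 1709 ± 209 (SD, n = 3). Members that pattern the posterior of the body were included: Hoxa11 had 2067, 2480.3 and 2214, Hoxd12 1142, 1404 and 1311 and Hoxd13 618, 1306 and 1104 normalized reads. Hoxd13 was lowest in replicate 1. Foxr2, a forkhead factor known mainly from embryo, testis and tumours, had 5204, 4696 and 4823, and it was the highest of 29 listed forkhead genes per kb, at 1529 ± 82.3. Among stem cell factors Lin28a, an RNA-binding protein that blocks let-7 maturation, had 1267, 1982 and 1656, and Sall4 337, 362 and 445. Pou5f1 and Nanog, partners of Sox2 in embryonic stem cells, had 6.76, 7.03 and 7.68 and 15.8, 33.1 and 24.0 normalized reads and 5.25 ± 0.346 and 10.99 ± 3.93 per kb, and Esrrb, Zfp42, Dppa4, Utf1 and Tdgf1 were not listed.

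**Figure D1:**
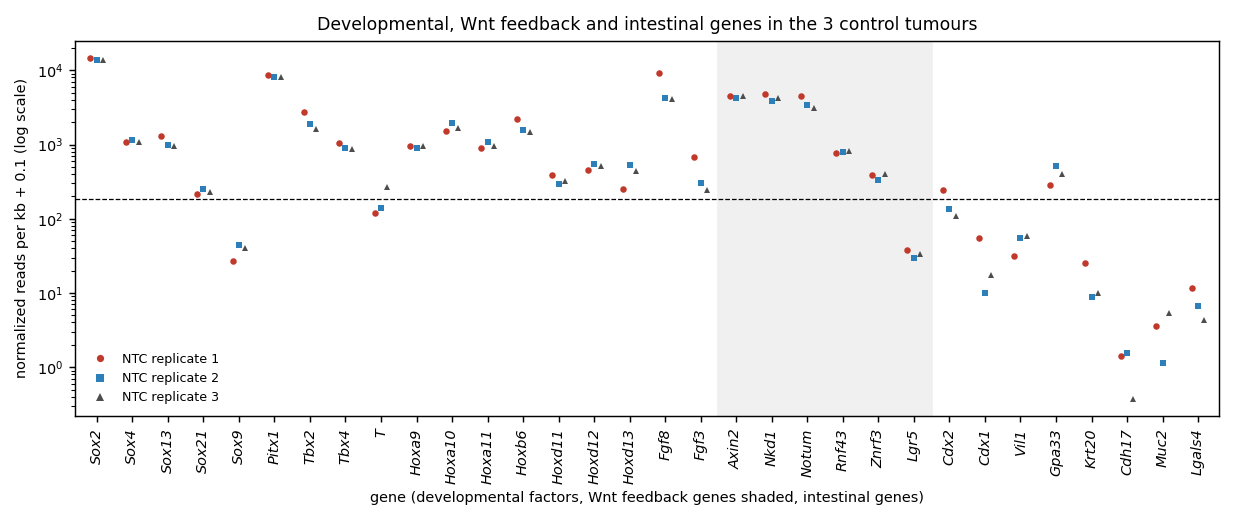
Normalized reads per kb (log scale, 0.1 added) of developmental factors, Wnt feedback genes (shaded) and intestinal genes in each of the 3 control tumours, with 1 point a library and a dashed line at 186, the median of genes with a mean of at least 20. Sox2, Pitx1 and the Wnt feedback genes Axin2, Nkd1 and Notum lie far above the line in all 3 libraries, and Cdx1, Vil1, Krt20, Cdh17, Muc2 and Lgals4 lie below it.

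Cell cycle genes differed little between the tumours. All 31 cell cycle genes had a mean of at least 20, none was 2-fold above or below both other libraries in any tumour, and their summed level was 120086, 127508 and 129303 normalized reads. Replicate 1 was nonetheless the lowest library for 22 of the 31, against 41.9% of all genes with a mean of at least 20. Top2a, a topoisomerase of dividing cells, had 14803, 15617 and 16462, Mki67, a proliferation marker, 5899.8, 5777 and 6339.9, and Ccnd1, a G1 cyclin, 8556, 8320.3 and 7133. The 28 genes of glycolysis and the hypoxia response summed to 456848, 408313 and 398571. Slc2a1, the glucose transporter, had 16282, 10829.8 and 10367 and was highest in replicate 1, as were 22 of the 28. Of all 13647 genes with a mean of at least 20, 5343 were highest in replicate 1. None of the 28 was 2-fold above or below both other libraries in any tumour. Ndrg1, a hypoxia-induced gene, was also highest there at 962, 515 and 487. The 72 oxidative phosphorylation genes at the minimum or above included no gene apart in any library, and 53 of them were lowest in replicate 1.

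Genes of the insulin-like growth factor system accompanied Igfbp2. Igfbp4 had 19647, 14749.6 and 12474 normalized reads and Igfbp3 5469, 6365 and 4881, both binding proteins like Igfbp2. The ligand gene Igf1 had 3789, 5642 and 4494, whereas Igf2 had 179, 148 and 190.0, and H19, the non-coding neighbour of Igf2, 3659, 2868 and 3368. Receptor genes Igf1r and Insr had 1851, 1591 and 1649 and 1773, 1939 and 2101. Other receptor kinases covered a wide range per kb, with Fgfr1 at 664 ± 44.9, Erbb2 at 313 ± 26.3 and Erbb3 at 242 ± 26.5, and Met at 14.7 ± 4.30 and Egfr at 2.40 ± 1.73 (SD, n = 3). Egfr, the receptor of epidermal growth factor, had 10.1, 44.2 and 19.2 normalized reads. Erbb4, Fgfr4, Ros1, Alk and Ntrk3 were not listed.

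Genes often altered in colon cancer were measured in all 3 tumours, 28 of 28 with a mean of at least 20. Trp53, the p53 gene, had 4218, 4231 and 4278 normalized reads, its target Cdkn1a 2501, 2495 and 2678, Apc 867, 749.8 and 906 and Smad4 3239, 3061 and 3051. In a separate list of DNA repair genes, the mismatch repair gene Msh6 had 2444, 2735 and 2913. Mgmt, which removes alkyl groups from guanine, was low at 14.6, 5.02 and 7.68. Of 6 genes known as sources of MC38 neoantigens, 5 were listed; Reps1 had 2729, 2168 and 2198, Adpgk 1452, 1303 and 1567 and Dpagt1 728, 723 and 663 normalized reads. These are levels of the transcripts, and the files hold no sequence of any mutation.

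Vessel and stromal markers were lower per kb than epithelial ones, with a median over the listed members of 59.8 for endothelial and 96.7 for fibroblast genes against 1156 for epithelial genes. All 15 endothelial genes had a mean of at least 20, and their summed level was 5244, 4998 and 4593 normalized reads. Pecam1, an adhesion protein of vessel walls, had 859.6, 699.6 and 619, Cdh5, the endothelial cadherin, 801, 798 and 669.8, and Vwf, a clotting protein, 653, 725 and 618. Rgs5, a pericyte marker, had 1111, 712 and 566 and Acta2, smooth muscle actin, 354, 428 and 252. Pdgfra, a receptor of fibroblasts, had 1387, 1321 and 1168 normalized reads, and Dcn and Lum, matrix proteoglycans of fibroblasts, had 42.8, 81.3 and 24.9 and 22.5, 23.1 and 4.80. Fibrillar collagen genes were highest in replicate 2: Col1a1 had 2521, 4396 and 3630.1, Col1a2 1586, 2854 and 2249 and Col3a1 1398, 2988 and 1378. The mesenchymal genes Vim and Fn1 had 3706, 4347 and 4101 and 4569, 9020.0 and 7965, and Twist1, a factor of epithelial-mesenchymal transition, 1567, 2198 and 2249. Snai2 was at 0, 13.0 and 9.60 normalized reads, whereas Snai1 had 755, 571 and 719.

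Lymphocyte and neutrophil markers were low in these tumours and macrophage markers higher. The median level of the listed genes was 8.50 normalized reads per kb for T cells, 9.95 for cytotoxic lymphocytes, 16.3 for neutrophils and 44.6 for macrophages and monocytes, whose summed level was 9204, 14060.0 and 12733 normalized reads. Ptprc, which encodes the leukocyte antigen CD45, had 51.8, 175 and 279 normalized reads and 29.4 ± 19.8 per kb (SD, n = 3). Among 20 macrophage and monocyte genes 18 had a mean of at least 20, with Lyz2, lysozyme, at 1248, 2486 and 2243 and C1qa, a complement subunit, at 272, 856 and 835. Arg1, arginase of alternatively activated macrophages, had 600.5, 1017 and 861. Of 19 T cell genes only 7 reached a mean of 20, and Cd3e, a chain of the T cell receptor complex, had 1.13, 12.05 and 37.4 normalized reads. Lck, a T cell kinase, was the highest of that list per kb at 137 ± 14.1, with 265, 320.2 and 316 normalized reads. The neutrophil genes S100a8 and S100a9 had 16.9, 8.03 and 6.72 and 22.5, 26.1 and 8.64, and Ly6g, Camp, Ngp, Elane and Mpo were not listed. Mast cell proteases were detected in every library, with Mcpt2 at 133, 126 and 295, Tpsb2 at 167, 119 and 272 and Cpa3, a carboxypeptidase, at 78.9, 62.2 and 143. The median over listed mast cell and basophil genes was 65.3 per kb, above that of macrophages, while their summed level was lower at 712, 791 and 1448. Cd79a, a B cell receptor chain, had 32.7, 22.1 and 36.5. In bulk tumour RNA, fewer cells of a type and less RNA per cell cannot be told apart.

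**Figure D2:**
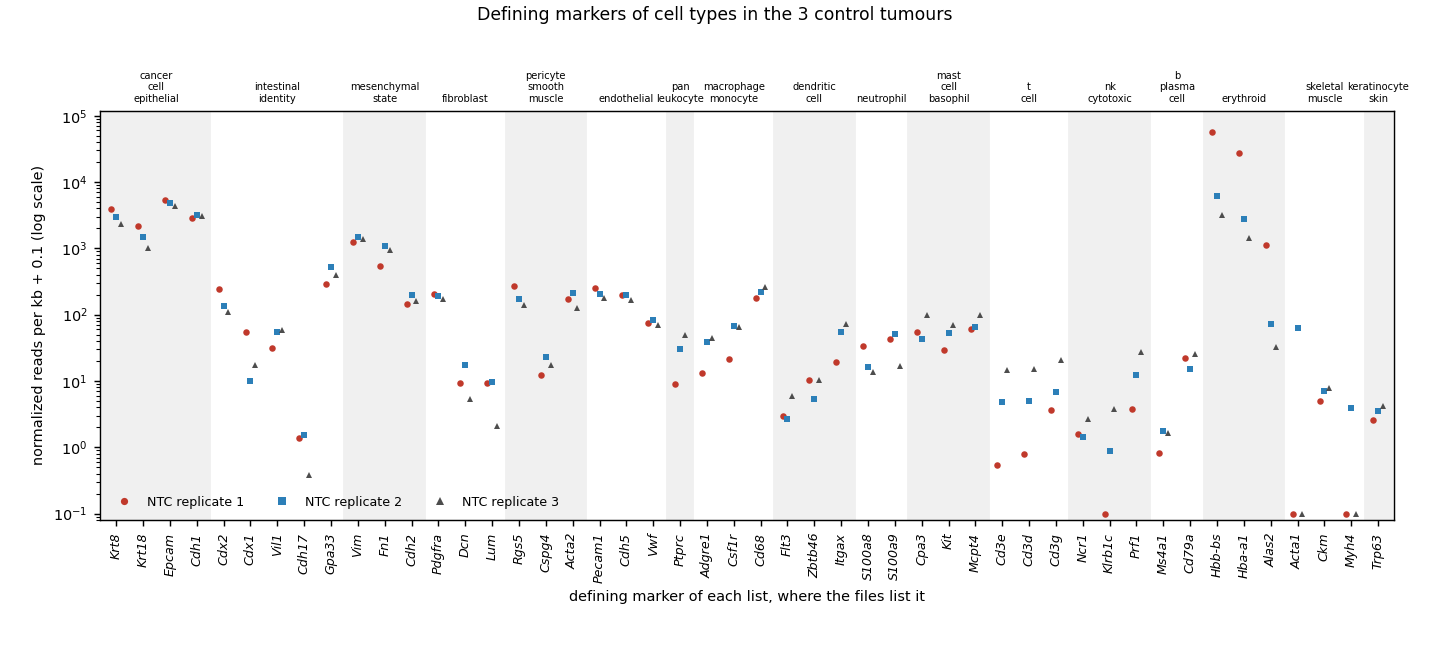
Normalized reads per kb (log scale, 0.1 added, so a gene at 0 sits at the bottom) of defining markers of 17 cell types in the 3 control tumours, with points for single libraries. Epithelial markers lie near 1000 or above and T and NK cell markers at the bottom, where replicate 1 is lowest for Cd3e, Cd3d and Cd3g, and Acta1 and Myh4 have reads only in replicate 2.

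Several defining markers of skin, fat and distant organs were not listed. These included the keratinocyte genes Krt5, Krt14 and Krt1 and the fat cell genes Adipoq and Plin1, and Trp63, a factor of basal skin cells, had 13.5, 18.1 and 22.1 normalized reads. Of 12 fat cell genes 5 were listed and 4 had a mean of at least 20, with a median over the listed of 86.7 normalized reads per kb. Among them Fabp4, a fatty acid carrier also found in endothelium and macrophages, had 570.0, 339 and 191 normalized reads, Lpl, lipoprotein lipase, 486, 655 and 672, and Pnpla2, a triglyceride lipase, 998, 888 and 920.2. Alb and Ins2, markers of liver and pancreas, were not listed either. Some skeletal muscle genes had reads only in replicate 2: Acta1, muscle actin, had 0, 90.3 and 0, and the myosin genes Myh4, Myh1 and Myh2 had 0, 23.1 and 0, 0, 21.1 and 0 and 0, 14.1 and 0 normalized reads. Against a floor of 3 reads, 3.38 normalized reads in replicate 1 and 2.88 in replicate 3, Acta1 was at least 26.7-fold higher in replicate 2 than in replicate 1 and at least 31.4-fold higher than in replicate 3. Not all of the muscle list shared this pattern. Tnni2, a muscle troponin gene, also had no read in replicate 1 and was higher in replicate 2. Of the 12 listed muscle genes 6 had a mean of at least 20. Of these 6, 3 were highest in replicate 2, Acta1 among them, and 3 were lowest there. Ttn, the giant sarcomere protein, was 2-fold lower in replicate 2 at 37.2, 17.1 and 38.4. Ckm, muscle creatine kinase, had 13.5, 19.1 and 21.1. Across all genes 19 had no read in any control tumour, among them Gabra3, a GABA-A receptor subunit, Fmod, a matrix protein, Clec4b1, a myeloid lectin, Lamp3, a marker of mature dendritic cells, and Rnase2a. A count of 0 in a library allows up to 3 reads there, and replicate 1 had the most genes at 0, 422 against 155 and 109.

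Replicate 1 differed from the other control tumours more than these differed from each other. Among genes with a mean of at least 20, 860 (6.30%) were 2-fold apart between replicates 1 and 2 and 839 (6.15%) between replicates 1 and 3, against 214 (1.57%) between replicates 2 and 3. Across genes the SD of the log2 difference was 0.54, 0.57 and 0.31 in these pairs, and the Pearson correlation of log2 values 0.97, 0.97 and 0.99, which describes the libraries, as genes are not independent replicates. Counting error alone would give a chi-square near its degrees of freedom, and the ratio of these was 24.7, 30.8 and 8.43 in the 3 pairs. A gene was counted as apart in a library when its value plus 0.5 was at least 2-fold above, or at least 2-fold below, both other libraries. By this rule replicate 1 was lower for 478 of 13647 genes (3.5%) and higher for 93 (0.681%), replicate 2 higher for 41 (0.3%) and lower for 38 (0.278%), and replicate 3 higher for 67 (0.491%) and lower for 18 (0.132%). With a single library on one side no test exists for these counts. The remaining 12961 genes had no library apart.

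**Figure D3:**
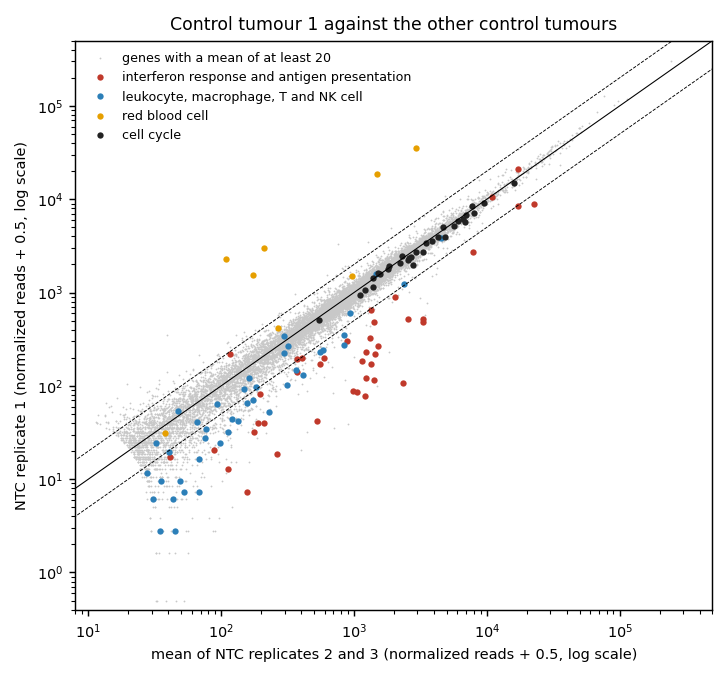
Normalized reads in replicate 1 (plus 0.5, log scale) against the mean of replicates 2 and 3 for the 13647 genes with a mean of at least 20, with a solid line at equality and dashed lines at 2-fold; coloured points are members of gene lists. Most interferon and antigen presentation genes fall below the lower line, haemoglobin genes above the upper line, and cell cycle genes lie near equality.

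Interferon-induced genes were mostly low in replicate 1. Of 22 interferon response genes 21 were listed, all with a mean of at least 20, and 16 were lower in replicate 1 than in both others by the 2-fold rule, against 3.5% of all genes. Their median log2 difference of replicate 1 from the mean of the other libraries was -2.24, against -0.01 over all genes with a mean of at least 20. The summed level was 2950.5, 12332 and 19771 normalized reads. Gbp2, a guanylate-binding GTPase that attacks pathogen vacuoles, had 106, 1620.1 and 3088 normalized reads. It was 15.3-fold (95% interval 12.4 to 19.04) higher in replicate 2 than in replicate 1 and 29.2-fold (95% interval 23.8 to 36.2) higher in replicate 3, with intervals for counting error only. Cxcl10, a chemokine that draws T cells, had 6.76, 99.4 and 212, and Cxcl9, its relative, 84.5, 645 and 1465. Iigp1, an immunity-related GTPase, had 77.7, 749.8 and 1650.5, and Irf1, a transcription factor induced by interferon, had 228, 1008 and 1460.5. Replicate 1 was lowest and replicate 3 highest in each of these 5 genes. Rsad2, an antiviral enzyme, went the other way at 221, 106 and 125.

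Promoters are shown for the members of the interferon and antigen presentation lists with the largest 2-fold-rule difference that hold a searched motif, since most genes of both lists were low in replicate 1. Each sequence is the 250 bases before the RefSeq start on GRCm38.p6, 5′ to 3′ on the gene's strand, with motif letters in capitals. Gbp2 lies on the plus strand at chr3:142620413-142620662, Cxcl10 on the minus strand at chr5:92348890-92349139 and Gbp3, another guanylate-binding GTPase gene, on the plus strand at chr3:142559794-142560043.
Gbp2: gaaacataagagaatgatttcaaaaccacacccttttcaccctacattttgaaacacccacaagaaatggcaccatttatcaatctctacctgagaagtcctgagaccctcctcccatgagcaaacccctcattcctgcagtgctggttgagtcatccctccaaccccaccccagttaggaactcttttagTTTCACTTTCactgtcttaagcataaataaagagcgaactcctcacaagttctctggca
Cxcl10: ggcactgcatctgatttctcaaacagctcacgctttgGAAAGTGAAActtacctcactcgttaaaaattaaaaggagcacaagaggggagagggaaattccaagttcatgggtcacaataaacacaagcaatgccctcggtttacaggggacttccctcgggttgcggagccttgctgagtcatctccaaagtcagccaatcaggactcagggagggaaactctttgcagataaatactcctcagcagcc
Gbp3: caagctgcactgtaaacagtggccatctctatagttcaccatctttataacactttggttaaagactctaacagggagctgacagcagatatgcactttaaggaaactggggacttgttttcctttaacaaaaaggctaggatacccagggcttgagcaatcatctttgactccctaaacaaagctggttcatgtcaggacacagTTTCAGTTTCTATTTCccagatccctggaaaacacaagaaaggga

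Gbp3 has a pair of starts in the table, and the one with the motif is shown. The capitals mark an interferon-stimulated response element (ISRE), searched as GAAA, 2 bases of any kind and GAAA, or on the other strand TTTC, 2 bases and TTTC, and in Gbp3 a pair of overlapping matches. A gamma-activated site (GAS), searched as TTCNNNGAA, was the other motif. Of 31 genes of both lists that were lower in replicate 1, 22 had a promoter in the RefSeq table, and 9 of these held the ISRE letters, 5 the GAS letters and 12 either. Among all 27025 genes of the table the shares were 3.46% for ISRE, 8.13% for GAS and 11.1% for either, and among the 10309 genes with a mean of at least 20 they were 3.20%, 6.94% and 9.71%. A match of letters is a description and does not show binding.

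Antigen presentation genes were low in replicate 1 as well. All 19 had a mean of at least 20, and 15 were lower there by the 2-fold rule, again against 3.5% of all genes, with a median log2 difference of -2.30. The MHC class I chains H2-K1 and H2-D1 had 8919, 22006 and 23013 and 8392, 16895 and 17251 normalized reads, and B2m, their light chain, 2695, 7748 and 7967. B2m is often used as a reference gene, and it varied most of 17 reference genes, with a coefficient of variation of 48.6% against 3.01% for Actb. Tap1, a peptide transporter, had 516, 2287 and 2818, Psmb8, an immunoproteasome subunit, 122, 1022 and 1449, and Nlrc5, which activates MHC class I genes, 87.9, 688 and 1275. On the class II side Cd74, the invariant chain, had 526, 2948 and 3686, and H2-Aa 186, 1017 and 1300.2. Replicate 1 lay far below the other libraries in all of these, while replicates 2 and 3 were within 2-fold of each other. Calr and Pdia3, chaperones of the same list that also serve other proteins, had 20864, 17571 and 16517 and 10464, 11212 and 10555 and were not apart.

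**Figure D4:**
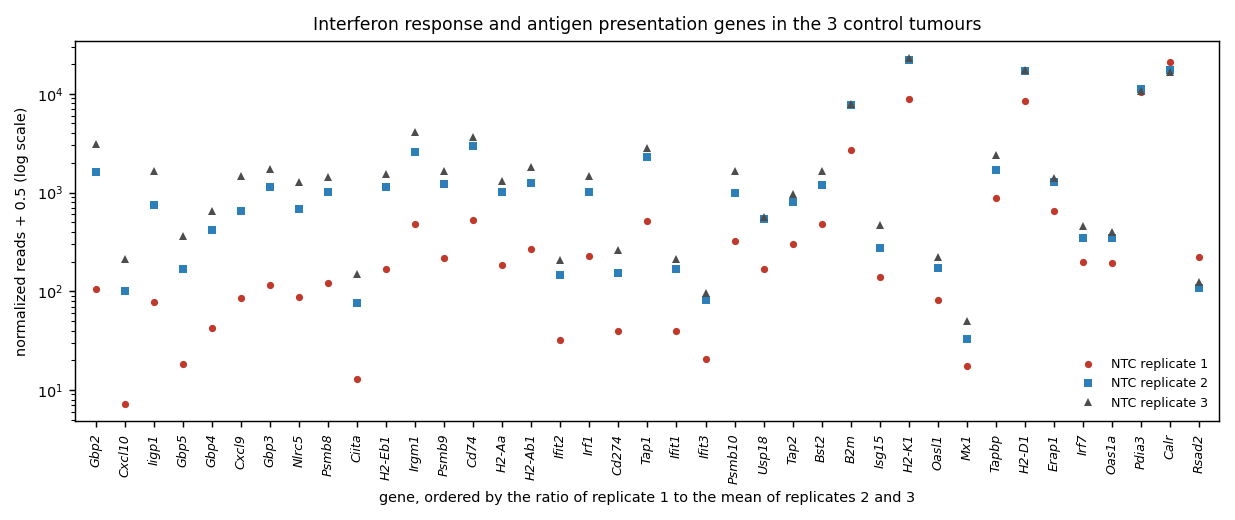
Normalized reads (plus 0.5, log scale) of interferon response and antigen presentation genes in the 3 control tumours, ordered by the ratio of replicate 1 to the mean of replicates 2 and 3, with points for single libraries. Replicate 1 is the lowest library for nearly all genes drawn, and Calr and Rsad2 at the right end have replicate 1 as the highest.

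Leukocyte genes were also mostly lowest in replicate 1. All 10 pan-leukocyte genes had a mean of at least 20, 6 were lower in replicate 1 by the 2-fold rule, against 3.5% of all genes, and the summed level was 943, 1995 and 2664 normalized reads. Of the 18 macrophage genes at the minimum 9 were lower there, against the same 3.5%, including Csf1r, the receptor of macrophage growth factor, at 101, 319 and 301, and Adgre1, the F4/80 antigen, at 41.7, 124 and 144. By the 2-fold rule no macrophage gene was higher in replicate 1, though 1 of the 18 was highest there. At a 4-fold rule, chosen after seeing the data, the macrophage count was 0. Cd8a, the co-receptor of cytotoxic T cells, had 6.76, 45.2 and 89.2, and Pdcd1, the PD-1 receptor, 2.25, 19.1 and 70.0. Gzmb and Prf1, which kill target cells, had 5.63, 20.1 and 66.2 and 9.01, 30.1 and 67.2, and all 4 genes were lowest in replicate 1 and highest in replicate 3. Only 7 of 19 T cell and 6 of 13 cytotoxic lymphocyte genes reached a mean of 20, some of them only through the libraries in which they were high, so counts over these lists are not read as a result. The summed levels were 411, 647 and 926 for T cell genes and 89.0, 229 and 426 for cytotoxic lymphocyte genes. Lck, given above, was a large part of the T cell sum in every library and varied little between them. Cd274, which encodes the checkpoint ligand PD-L1, had 39.4, 153 and 264 normalized reads. Leukocyte and interferon-induced genes were both lowest in replicate 1, the library with the highest haemoglobin share, and their part in one another was not tested.

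Red blood cell genes were the group highest in replicate 1. Of 13 erythroid genes 8 were listed, all with a mean of at least 20, and 5 were higher in replicate 1 by the 2-fold rule, against 0.681% of all genes. Hbb-bs had 35335, 3815 and 2009 normalized reads, and the alpha globin gene Hba-a1 18879, 1956 and 1009. Alas2, the first enzyme of haem synthesis in red cell precursors, had 2300.4, 149.6 and 65.3, 15.4-fold (95% interval 13.0 to 18.3) higher in replicate 1 than in replicate 2 by an exact binomial interval for counting error. Replicate 3 was the lowest library for all 3 genes. Klf1, a transcription factor of red cell precursors, did not follow them, at 30.4, 30.1 and 44.1, and Slc4a1, Rhag and Ahsp were not listed. Globin genes are near-identical copies, so the split of reads between Hbb-bs and Hbb-bt, and between Hba-a1 and Hba-a2, is uncertain.

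Promoters of erythroid genes are shown because the summed level of that list was highest in replicate 1, Alas2 on the plus strand at chrX:150547167-150547416 and Hbb-bs on the minus strand at chr7:103827929-103828178, as 250 bases before the RefSeq start on GRCm38.p6.
Alas2: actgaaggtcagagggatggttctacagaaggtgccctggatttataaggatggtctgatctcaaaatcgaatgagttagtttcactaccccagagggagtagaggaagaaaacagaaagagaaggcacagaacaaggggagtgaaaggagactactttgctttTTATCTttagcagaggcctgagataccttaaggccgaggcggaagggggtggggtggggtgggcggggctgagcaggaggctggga
Hbb-bs: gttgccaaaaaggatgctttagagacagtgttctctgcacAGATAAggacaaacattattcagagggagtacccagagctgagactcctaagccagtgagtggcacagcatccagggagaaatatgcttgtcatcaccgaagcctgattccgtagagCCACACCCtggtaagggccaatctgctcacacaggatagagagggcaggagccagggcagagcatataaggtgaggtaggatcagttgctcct

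Capitals mark the GATA letters AGATAA or TTATCT and the CACCC letters CCACACCC or GGGTGTGG, motifs of erythroid factors. Of the 5 genes, 2 held the GATA letters and 1 of these, Hbb-bs, also the CACCC letters. All genes of the table held them in 11.4% and 3.68%, and genes with a mean of at least 20 in 6.94% and 4.08%.

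Some stress-induced genes and growth factors were also higher in replicate 1. Hspa1b, a heat shock protein, had 3349, 621 and 886 normalized reads, and Atf3, a stress-induced factor, 455, 184 and 224. These were the members apart in replicate 1 among 22 stress response genes, and Atf3 was the 1 apart among 21 listed immediate early genes, against 0.681% of all genes, so a single gene of 21 is not read as a result. Dnajb1, a co-chaperone, and Jun, an immediate early gene, had 6552, 3146 and 3639 and 6123, 2969 and 3195 and were highest there without being 2-fold above both others. Col10a1, a collagen of hypertrophic cartilage, had 353, 48.2 and 28.8. Gli1, a target gene by which Hedgehog signalling is usually read and a gene chosen after its values were seen, had 143, 54.2 and 53.7. Fgf8, Fgf3, Mycn and Cdx1, described above, were in the same set.

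Outside the lists, the genes lowest in replicate 1 were led by others known to be induced by interferon. By ratio to the nearer library, the first 5 were Apol9a, at 2.25, 78.3 and 94.0 normalized reads, the complement gene C4b, at 2.25, 109 and 70.0, Tgtp2, an immunity-related GTPase gene, at 38.3, 676 and 1113, Ubd, a ubiquitin-like modifier, at 3.38, 66.2 and 125, and Zbp1, a sensor of nucleic acids, at 20.3, 340.3 and 458. Apol9a and C4b had 2 reads each in replicate 1, under the floor of 3. All but C4b were highest in replicate 3.

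Few genes were apart in replicate 2. The 5 genes with the largest excess there were Lox, an enzyme that cross-links collagen, at 59.7, 409.5 and 106 normalized reads, Gas6, a ligand of the Axl receptor, at 34.9, 132 and 39.3, Lyve1, a marker of lymphatic vessels and some macrophages, at 28.2, 85.3 and 13.4, Ptgs2, cyclooxygenase-2, at 15.8, 95.4 and 35.5, and Tnc, the matrix protein tenascin C, at 232, 2647 and 1024. Lox was 3.88-fold (95% interval 3.14 to 4.83) higher in replicate 2 than in replicate 3. Of 20 collagen genes 1, Col3a1, was higher in replicate 2 by the 2-fold rule, against 0.3% of all genes. Of 22 matrix protease and cross-linking genes 2 were, Lox and Mmp3, against the same 0.3%. Mmp3 reached the minimum only through replicate 2, so the count of 2 is not read as a result. Of 16 chemokine and cytokine genes at the minimum 3 were higher there, which were Cxcl2, a neutrophil chemokine, at 15.8, 48.2 and 15.4, Cxcl12, a stromal chemokine, at 83.4, 171 and 67.2, and the alarm cytokine gene Il33 at 1.13, 91.3 and 21.1 normalized reads. Cxcl2 and Il33 reached the minimum only through replicate 2, so the count of chemokine and cytokine genes is not read as a result. The summed fibroblast level was 8308, 13654 and 9889 normalized reads, highest in replicate 2. The muscle genes described above were detected in the same library, and their part in the matrix values was not tested. The genes lowest in replicate 2 were Cd300lg, Rrad, Plppr3, Nacad and mt-Nd5, the last at 6295, 2629 and 5632 normalized reads. The other 14 of the 15 mitochondrially encoded genes at the minimum were not apart. Replicate 2 was still the lowest library for 12 of the 15, against 28.2% of all genes with a mean of at least 20. Their median log2 difference of replicate 2 from the mean of the other libraries was -0.70.

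Of the 67 genes higher in replicate 3, 32 were also among those lower in replicate 1, against 3.5% of all genes. Both calls use the same 3 libraries and are not independent, so this overlap is not read as a result. The 5 with the largest excess were Mcpt1, a mast cell protease, at 3.38, 31.1 and 89.2 normalized reads, Sla, an adaptor of lymphocyte receptors, at 30.4, 33.1 and 92.1, Il2rb, a receptor chain for interleukins 2 and 15, at 12.4, 62.2 and 169, Slamf7, a receptor of NK and plasma cells, at 28.2, 29.1 and 77.7, and Cd300a, an inhibitory receptor, at 30.4, 29.1 and 76.8. Hdc, which makes histamine, had 65.3, 65.2 and 145, and Alox15, a lipoxygenase of eosinophils and macrophages, 295, 432 and 935. The summed mast cell level was 712, 791 and 1448 normalized reads. Of the 7 mast cell genes with a mean of at least 20, 2 were higher in replicate 3, against 0.491% of all genes. Of these 2, Mcpt1 reached the minimum only through replicate 3, so the count is not read as a result. Of the 21 interferon response genes 4 were higher there too, against 0.491% of all genes. They were Cxcl9, Cxcl10 and Iigp1, given above, and Gbp5, another guanylate-binding GTPase gene, at 18.0, 166 and 364. Replicate 1 was the lowest library for these 4, all of them apart there as well, so this count is not read as a result either. Genes lowest in replicate 3 included Fxyd6, at 106, 64.2 and 23.0, and Lrrc32, which binds latent TGF-beta on regulatory T cells and platelets, at 136, 139.5 and 59.5.

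**Figure D5:**
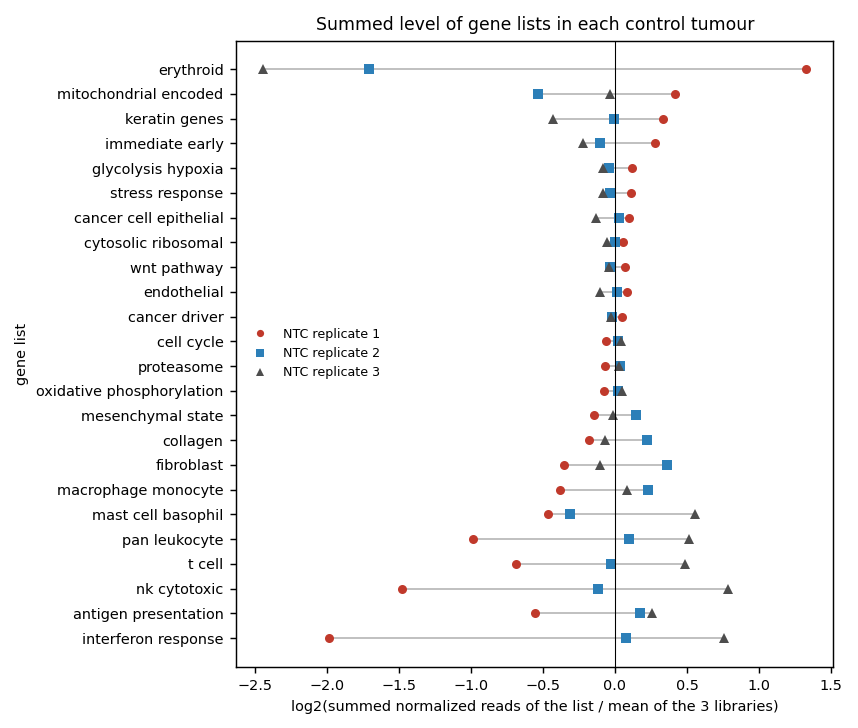
Summed normalized reads of 24 gene lists in each control tumour, as log2 of the ratio to the mean of the 3 libraries, with points for single libraries and a line from the lowest to the highest. Erythroid genes have the widest range, with replicate 1 highest, and interferon response genes the next, with replicate 1 lowest, whereas ribosomal, cell cycle and proteasome genes lie close to 0.

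Most genes varied little between the control tumours. The median SD of log2 values was 0.14 over genes with a mean of at least 20. The median coefficient of variation was 25.7% for genes with a mean of 20 to 100, 10.4% for 100 to 1000, 6.42% for 1000 to 10000 and 6.11% above that. After subtraction of counting error, these became 20.0%, 8.90%, 6.03% and 6.05%, so counting error was a small part of the spread of genes above 1000. The 5 most even genes with a mean of at least 1000 were Pgam1, a glycolytic enzyme, at 8316, 8329 and 8329 normalized reads, Tns1, Eml2, Ilrun and Cbfb, with coefficients of variation of 0.0899% to 0.217%. These lie below the median from counting error alone, 2.32% for genes with a mean of 1000 to 10000. The 5 are therefore not shown to be steadier than other genes. Among 17 reference genes Actb, Ppia and Pgk1 were the most even, with coefficients of variation of 3.01%, 3.10% and 3.14%, whereas Gapdh had 8.99% and Eef1a1 16.0%.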

How the data were processed

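The deposited values are a signal per gene: read counts divided by 1 factor per library, read from the values themselves, as 100% of the values in each library were whole multiples of the smallest, within 0.001. The submitters' processing notes name the tool Cuffdiff 2.2.1 and the build mm9 without their roles. Neither the aligner nor the annotation, counter or strand setting is given in the sources used here, which leaves overlapping genes and near-identical copies uncertain. Per the labels' protocols, column-purified RNA went into NEBNext Ultra libraries for an Illumina NovaSeq.

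From the 3 control files, means, SDs, shares and ratios were computed with Python 3.11.15, pandas 2.3.3 and scipy 1.17.1. Transcript lengths came from GENCODE M21 and matched 16885 of the 17134 listed genes (98.5%). The other 249 have no level per kb. No comparison between groups was made and no p-value exists, as only 1 group was used. Library shares have Wilson intervals, and ratios exact binomial intervals, at 95%. Each share uses 1 library and each ratio 1 library a side, so the intervals cover counting error only. Reads carry no molecular identifiers, so copies of 1 molecule may be counted as separate reads and the intervals may be too narrow.

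The members and the 47 gene lists were chosen with earlier results of these data known. A further 14 lists of developmental and growth factor families, newer histone names and the promoter motifs were chosen after the values were seen. Named genes were the 25 highest per kb and 10 highest in reads, both without ribosomal protein and mitochondrial genes, the defining markers and 3 highest other members of each list, the 5 most divergent genes for each library and direction with a mean of at least 40, Gad1, and the 5 most even with a mean of at least 1000. Other list members named in the text were chosen after their values were seen. Some list members are counted and summed but not reported singly here. Promoters came from RefSeq.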

Additional observations from a re-analysis of the deposited data

How the results depend on the processing

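No paired analysis was possible because only 1 group was used. Scaling by total reads or by upper quartile shifted no library by more than 0.02 on the log2 scale and changed no result beyond the spread or 1.5 times. The 3 control libraries limit every statement on spread, and genes with a mean under 100 were the most affected by counting. Of 25 genes highest per kb, 17 were kept with the median transcript length and 18 without division by length. The number of genes at the minimum was 15042 with a mean of 10 and 10956 with a mean of 100.

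Counts of genes apart moved with the filter and the fold. The order below is replicate 1 higher and lower, replicate 2 higher and lower, and replicate 3 higher and lower. With no filter the counts were 281, 1229, 307, 360, 370 and 200. A mean of 100 gave 30, 173, 5, 1, 6 and 2, and a 4-fold rule gave 9, 109, 7, 1, 2 and 0. A mean of 10 gave 167 for replicate 1 higher, 85 and 125 for replicate 2 and 134 and 73 for replicate 3. Adding 5 in place of 0.5 gave 21 for replicate 2 lower, and 43 and 8 for replicate 3. With 1 of the other libraries left out, so that a single one remained to compare with, the counts ranged from 191 to 224, from 601 to 638, from 89 to 601, from 140 to 224, from 140 to 638 and from 89 to 191.

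Of list counts for replicate 1, chosen after seeing the data, those for interferon response (11 to 20) and erythroid genes (5 throughout) kept within 1.5 times of 16 and 5. Antigen presentation fell from 15 to 9 and macrophage genes from 9 to 0 under the 4-fold rule. The T cell count, 3, was 8 with a mean of 10, 5 without replicate 2 and 1 without replicate 3, and the cytotoxic lymphocyte count, 5, was 2 under the 4-fold rule and 1 without replicate 3. Leaving out 1 of 3 values cannot move a mean by 1 SD, so such means say nothing about stability. Of 61 summed list levels, 4 moved by over 1.5 times: erythroid from 25104 to 6152 normalized reads without replicate 1, and without replicate 3 interferon response from 11685 to 7641, cytotoxic lymphocyte from 248 to 159 and eosinophil from 575 to 382.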

Other observations

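Genes that handle glutamate, the substrate of the enzyme that Gad1 encodes, were measured beside it. Glul, which makes glutamine from glutamate, had 17864, 12917 and 11269 normalized reads and 5020.3 ± 1229 per kb (SD, n = 3), and was highest in replicate 1. Glud1, glutamate dehydrogenase, had 2860.3, 3025 and 2994. Gad2, the second decarboxylase gene, had 134, 172 and 124, and Abat, which degrades GABA, 128, 99.4 and 102. The GABA transporter gene Slc6a13 had 281, 258 and 253, and Gabbr1, a subunit of the GABA-B receptor, 385, 351 and 409.7. Slc32a1, Slc6a11, Gabbr2 and Gabrp were not listed. Of 13 genes of this list with a mean of at least 20, 1, the glutamate transporter gene Slc1a3, was apart, lower in replicate 1 at 259, 615 and 521 normalized reads, which is not read as a result beside 3.5% of all genes.

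Secreted and surface molecules that act on immune cells included Tgfb2, a suppressive cytokine, at 3916, 4165 and 3605 normalized reads and 761 ± 54.8 per kb (SD, n = 3), against 163 ± 38.3 per kb for Tgfb1. Il33, an alarm cytokine of stroma and epithelium, had 1.13, 91.3 and 21.1, and Mmp3, a matrix protease, 0, 60.2 and 2.88, both highest in replicate 2. The chemokine genes Ccl8 and Ccl5 had 14.6, 127 and 110.4 and 6.76, 49.2 and 55.7, both lowest in replicate 1. Nectin2 and Pvr, ligands of the TIGIT checkpoint receptor, had 1941, 2187 and 2032 and 602, 630.4 and 608, and Cd47, which signals to macrophages not to engulf a cell, 1282, 1099 and 1167. These ligands were not apart in any library, unlike Cd274. Il6, Il11, Csf2, Csf3, Ccl20, Cxcl5 and Tslp were not listed in the files.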
